A study of Mus musculus with 9 samples.

Results

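The sirtuins, the 7 genes Sirt1 to Sirt7, were taken by symbol from the table of raw read counts per gene, and all 7 were found among its 49315 genes. All 7 also passed the filter on low counts that left 18492 genes for testing. RNA was sequenced after polyA selection from whole brains of wild-type C57BL/6J mice, 5 Young (3 months) and 4 Old (33 months). The study's methods give the mice as males and the young age as 3 or 4 months, and old replicate 2 was not analysed here. The groups differed in age alone by their labels, and no treatment or transgene was part of either. By the series' design text, RNA was measured to see if mRNA levels account for the proteomic data.

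Sirtuins are enzymes that remove acetyl and other acyl groups from lysines of proteins, and unlike the zinc-dependent deacetylases they consume NAD+ in each reaction. SIRT1, SIRT6 and SIRT7 are mainly nuclear, SIRT2 is mainly cytosolic, and SIRT3, SIRT4 and SIRT5 are mitochondrial. In brain, Sirt2 is best known from myelinating oligodendrocytes, where its protein deacetylates tubulin.

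No sirtuin passed the test for an age difference. The quasi-likelihood test of edgeR, adjusted by Benjamini-Hochberg over all genes, gave 0 of 7 sirtuins at an adjusted p under 0.05, beside 11.0% of all genes tested (6.09% higher and 4.89% lower in Old), and 0 also passed the added threshold of an absolute log2 fold change over 0.58, beside 2.50% of all genes. At an unadjusted p under 0.05 there was 1 sirtuin, Sirt2, beside 25.5% of all genes, and DESeq2 gave the same counts of 0 and 1. The log2 fold changes, old minus young, ran from -0.16 for Sirt5 to 0.14 for Sirt1, with standard errors from 0.037 to 0.081, and their median was 0.058 beside -9.2e-05 over all genes. The 95% intervals of all 7 genes lay within the threshold of 0.58 in either direction. Over the family the lowest limit corresponded to a level in Old of 0.797 times that in Young and the highest to 1.22 times. Between 139 and 2822 counts of a sirtuin were read per library.

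**Figure D1:**
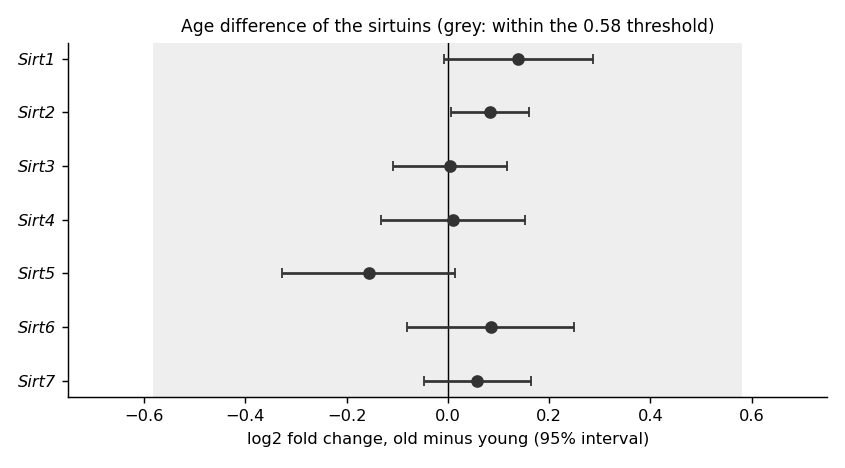
Log2 fold change of each sirtuin (x axis, old minus young, edgeR) with its 95% interval as a horizontal bar; grey marks the range within the threshold of 0.58. All 7 intervals lie inside the grey range, and 6 of 7 hold 0.

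The promoter sequences of 3 members are shown because these genes had the largest age differences in either direction (Sirt1 and Sirt5) or groups of mice that did not overlap (Sirt2 and Sirt5). They are RefSeq sequences of GRCm38.p6 before the RefSeq start, cut to the bases outside annotated exons and written 5′ to 3′ on the gene's strand, and the only capitals mark CACGTG, the palindromic E-box bound by basic helix-loop-helix factors.
Sirt1, chr10:63339051-63339285, minus strand: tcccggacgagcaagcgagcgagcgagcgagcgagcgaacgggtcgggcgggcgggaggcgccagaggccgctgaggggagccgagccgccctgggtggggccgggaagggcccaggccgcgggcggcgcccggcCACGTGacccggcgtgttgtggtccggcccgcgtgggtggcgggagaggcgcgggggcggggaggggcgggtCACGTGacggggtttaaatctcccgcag
Sirt2, chr7:28766641-28766734, plus strand: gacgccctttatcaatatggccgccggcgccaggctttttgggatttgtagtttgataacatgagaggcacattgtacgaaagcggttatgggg
Sirt5, chr13:43365285-43365495, plus strand: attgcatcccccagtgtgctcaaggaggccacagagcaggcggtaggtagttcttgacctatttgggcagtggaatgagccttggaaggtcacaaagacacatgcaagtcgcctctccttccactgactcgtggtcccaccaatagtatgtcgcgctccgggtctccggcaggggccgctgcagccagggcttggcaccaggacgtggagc
The Sirt1 stretch held CACGTG beginning at -115 and at -43 relative to the RefSeq start, which lies inside the longer gene span of GENCODE given below, while 6.02% of 32851 RefSeq windows of 250 bases held it at least once. No other sirtuin window held it. The Sirt5 stretch held CCAAT, read on both strands, at -111, a motif found in 33.8% of the windows. The Sirt1 window was rich in G and C, at 79.2%, beside a median of 52.4% over all windows. These matches describe the letters only, and binding was not measured.

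Among the nuclear members, Sirt1 (ENSMUSG00000020063, chromosome 10, 63319005 to 63381704, minus strand, GRCm38), which deacetylates transcription factors such as the FOXO proteins and PGC-1α, was the highest of the family in its estimated rise. Its level in CPM (counts relative to the library total, scaled with TMM factors) was 22.9, 22.7, 20.4, 18.9 and 21.5 in Young 1 to 5 and 22.6, 21.9, 23.4 and 25.8 in Old 1, 3, 4 and 5. The groups overlapped, with 2 of the 4 old mice above every young mouse. The mean CPM was 21.3 ± 1.66 (SD, n = 5) in Young and 23.4 ± 1.73 (SD, n = 4) in Old. The log2 fold change was 0.14 (SE 0.070, 95% interval -0.0084 to 0.29, adjusted p = 0.23 by edgeR), and it was 0.089 without Old 5.

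Sirt6 (ENSMUSG00000034748, chromosome 10, 81621785 to 81627797, minus strand), a chromatin deacetylase of DNA repair and telomeric chromatin, was the most variable member among old mice. Its CPM was 18.4, 18.5, 17.8, 19.4 and 17.0 in Young 1 to 5 and 22.4, 16.6, 18.4 and 19.8 in Old 1, 3, 4 and 5. The old mice thus fell on both sides of the young ones, with Old 1 and Old 5 above all of them and Old 3 below all. The coefficient of variation was 12.7% in Old and 4.84% in Young, while counting error alone gives 5.48% and 5.55%. Its log2 fold change was 0.085 (SE 0.078, 95% interval -0.081 to 0.25, adjusted p = 0.54 by edgeR), and it was 0.0065 without Old 1 and 0.15 without Old 3.

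Sirt7 (ENSMUSG00000025138, chromosome 11, 120618372 to 120625240, minus strand), a nucleolar member linked to ribosomal RNA transcription, had a CPM of 39.1, 35.2, 34.5, 38.5 and 37.4 in Young 1 to 5 and 38.9, 39.6, 37.7 and 37.9 in Old 1, 3, 4 and 5. The groups overlapped, and all old values lay in the upper part of the young range or just above it. The log2 fold change was 0.058 (SE 0.050, 95% interval -0.048 to 0.16, adjusted p = 0.51 by edgeR), and it was 0.033 without Young 3.

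**Figure D2:**
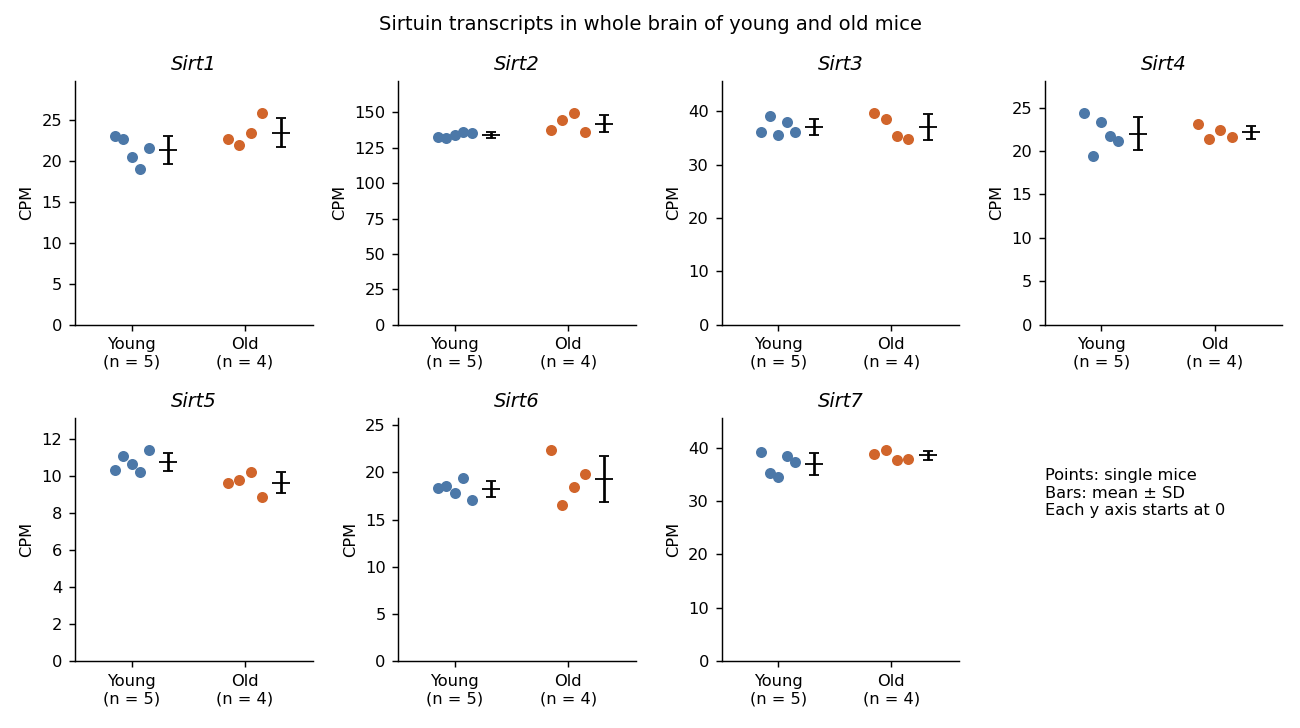
CPM of each sirtuin (y axes from 0) in single mice (points), with mean ± SD beside them, for Young (n = 5, blue) and Old (n = 4, orange). The ages overlap in 5 panels, while for Sirt2 every old mouse is above and for Sirt5 every old mouse is below the young mice, each by a margin too narrow to see.

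The cytosolic member Sirt2 (ENSMUSG00000015149, chromosome 7, 28766735 to 28788661, plus strand) was the most abundant sirtuin. Its CPM was 132.6, 131.8, 134.1, 136.3 and 135.7 in Young 1 to 5 and 137.7, 144.5, 149.7 and 136.5 in Old 1, 3, 4 and 5. Every old mouse lay above every young mouse, though Old 5 passed Young 4 by less than 1 CPM. The mean CPM was 134.1 ± 1.93 (SD, n = 5) in Young and 142.1 ± 6.17 (SD, n = 4) in Old. Old minus young, its log2 fold change was 0.083 (SE 0.037, 95% interval 0.0058 to 0.16, adjusted p = 0.16 by edgeR), the only interval of the family that did not hold 0. It was 0.057 without Old 4, the mouse with the highest Sirt2 value. Old 4 also stood apart in skeletal muscle genes, with Myh1 at 9.90 CPM beside 0.528 to 0.956 and Acta1 at 13.2 CPM beside 3.24 to 4.57 in the other old mice, and the part of this in its Sirt2 value was not tested. Markers of oligodendrocytes, listed because this cell type is the main source of Sirt2, moved in both directions. Of 10 markers, 2 were higher in Old (Mbp and Mobp, which encode myelin proteins, at log2 fold changes of 0.26 and 0.33) and 1 was lower (Mog, at -0.22). Of all genes tested, 6.09% were higher and 4.89% lower. The estimates were above 0 for 5 markers and below 0 for 5, and the largest in size, Opalin at -0.56, was not called (SE 0.17, adjusted p = 0.063 by edgeR). The summed CPM of the 10 markers was 6474 to 7777 in Young and 7165 to 8769 in Old. Their part in the Sirt2 values was not tested. In bulk tissue, fewer cells of a type and less RNA per cell cannot be told apart.

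Among the mitochondrial members, Sirt5 (ENSMUSG00000054021, chromosome 13, 43365496 to 43395203, plus strand), which removes succinyl, malonyl and glutaryl groups, was the one sirtuin with an estimate below 0. Its CPM was 10.3, 11.1, 10.7, 10.2 and 11.4 in Young 1 to 5 and 9.61, 9.80, 10.2 and 8.86 in Old 1, 3, 4 and 5. All old mice lay below all young mice, with Old 4 and Young 4 nearly equal. The mean CPM was 10.7 ± 0.497 (SD, n = 5) in Young and 9.63 ± 0.572 (SD, n = 4) in Old. The log2 fold change was -0.16 (SE 0.081, 95% interval -0.33 to 0.013, adjusted p = 0.24 by edgeR). Sirt2 and Sirt5 made 2 of 7 sirtuins without overlap between the ages, beside 12.6% of all genes tested. With CPM computed from total counts without TMM factors, 0 of 7 did so, since Sirt2 then reached 137.2 in Young and began at 136.2 in Old, and Sirt5 began at 10.02 in Young and reached 10.21 in Old.

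Sirt3 (ENSMUSG00000025486, chromosome 7, 140863666 to 140882309, minus strand), the main mitochondrial deacetylase, had nearly equal means at both ages. Its CPM was 36.2, 39.1, 35.5, 38.0 and 36.1 in Young 1 to 5 and 39.7, 38.6, 35.3 and 34.8 in Old 1, 3, 4 and 5. The log2 fold change was 0.0035 (SE 0.053, 95% interval -0.11 to 0.12, adjusted p = 0.98 by edgeR), and its sign turned with the scaling, the filter and the mice left out. Sirt4 (ENSMUSG00000029524, chromosome 5, 115478010 to 115484725, minus strand), which acts on glutamate dehydrogenase and pyruvate dehydrogenase, had a CPM of 24.4, 19.4, 23.4, 21.8 and 21.1 in Young 1 to 5 and 23.2, 21.4, 22.4 and 21.6 in Old 1, 3, 4 and 5. All old values lay inside the young range. Its log2 fold change was 0.010 (SE 0.068, 95% interval -0.13 to 0.15, adjusted p = 0.95 by edgeR), with a sign that also turned.

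Levels were compared between sirtuins on the TPM scale (which divides counts by gene length), as a share of the summed sirtuin TPM of each mouse. Sirt2 made up 39.9% on average and exceeded the next sirtuin by 2.59 to 3.23 times in the 9 mice. Sirt4 followed with 13.4%, then Sirt5 with 11.0%, Sirt7 with 10.7%, Sirt6 with 9.81%, Sirt3 with 9.06% and Sirt1 with 6.10%. Neighbours in this order kept their places in all 9 mice for Sirt2 over Sirt4, Sirt4 over Sirt5 and Sirt3 over Sirt1. Sirt7 over Sirt6 and Sirt6 over Sirt3 held in 8 of 9 mice, and Sirt5 exceeded Sirt7 in 5 of 9, so this pair was not ordered. The place of Sirt5 rests on the length used for it. The deposited TPM implied a length for Sirt5 of 0.272 times that of Sirt2, while its annotated exons span 1.21 times those of Sirt2. Per kilobase of annotated exons, Sirt5 was the last of the 7 with 2.69% of the sum, in every mouse below Sirt1.

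Of the 3 compartment shares of TPM, only the mitochondrial one had an adjusted p under 0.05 by the exact permutation test. Sirt3, Sirt4 and Sirt5 together held 34.7%, 34.1%, 35.0%, 33.7% and 34.3% of the summed sirtuin TPM in Young 1 to 5 and 33.1%, 32.7%, 32.1% and 31.5% in Old 1, 3, 4 and 5. Every old mouse was below every young mouse. The mean was 34.4% ± 0.497 (SD, n = 5) in Young and 32.3% ± 0.704 (SD, n = 4) in Old, a difference of -2.03 percentage points (exact two-sided permutation test, p = 0.0159, the smallest this design allows, adjusted over the 3 shares p = 0.0476). The nuclear share was 26.2% ± 0.696 (SD, n = 5) in Young and 27.1% ± 1.46 (SD, n = 4) in Old (exact permutation test, adjusted p = 0.286). The cytosolic share, Sirt2, was 39.4% ± 0.636 (SD, n = 5) and 40.6% ± 1.48 (SD, n = 4) (exact permutation test, adjusted p = 0.262). The 3 shares sum to the whole and are not independent. The mitochondrial difference was no longer past the threshold with shares of CPM, at -1.31 percentage points (exact permutation test, adjusted p = 0.0952), or per kilobase of annotated exons, at -1.29 (exact permutation test, adjusted p = 0.143), and both of these give Sirt5 less weight.

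**Figure D3:**
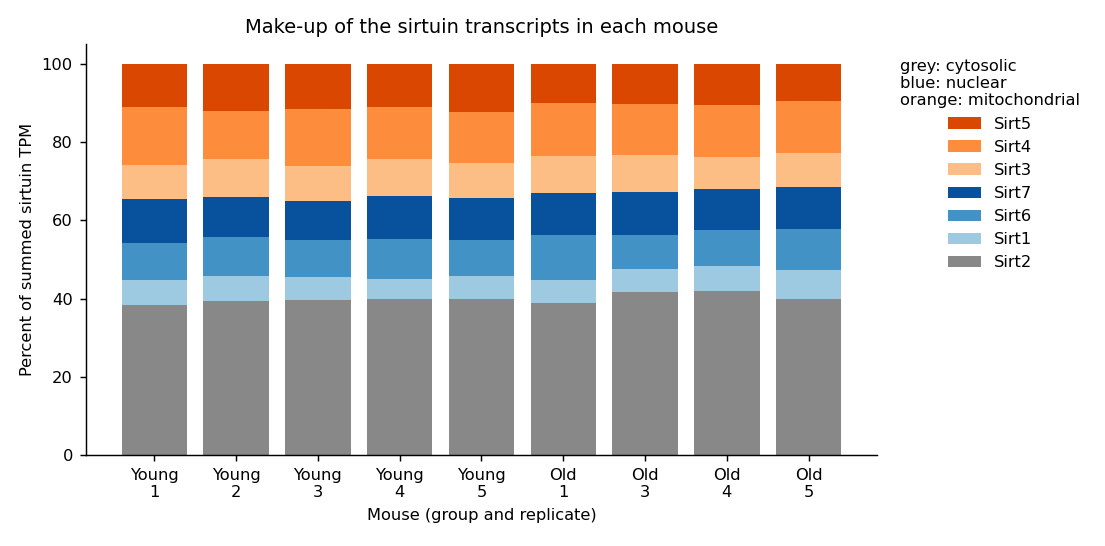
Share of each sirtuin in the summed sirtuin TPM (y axis, percent) of each mouse (x axis), stacked by compartment: grey cytosolic, blue nuclear, orange mitochondrial. The orange part takes 33.7% to 35.0% in the young mice and 31.5% to 33.1% in the old mice.

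The genes that make or use NAD+, the cosubstrate of all sirtuins, were then described as 2 lists. Of 14 tested genes of NAD+ synthesis and salvage, 1 rose, 0 fell and 13 did not pass, which is 7.14% higher beside 6.09% of all genes tested. The gene that rose was Nampt, the rate-limiting enzyme of salvage from nicotinamide, with a mean CPM of 51.1 ± 1.49 (SD, n = 5) in Young and 58.2 ± 0.915 (SD, n = 4) in Old without overlap (log2 fold change 0.18, SE 0.040, adjusted p = 0.0069 by edgeR). Nmnat2, the axonal enzyme of the last step, stood at -0.013 (adjusted p = 0.89 by edgeR). The median of the list was 0.11. Of 8 tested genes of other NAD+-using enzymes, 2 rose and 1 fell, beside 6.09% and 4.89% of all genes tested in turn. Parp3 (log2 fold change 0.64, adjusted p = 0.0022 by edgeR) and Parp4 (0.59, adjusted p = 0.00095), both ADP-ribosyltransferases, rose from mean CPM of 5.94 and 14.2 to 9.29 and 21.2. Sarm1, the NAD+ hydrolase of axon degeneration, fell by 0.16 on the log2 scale (adjusted p = 0.034 by edgeR), a call kept in 8 of 19 alternatives and lost when any mouse but Young 5 was left out. Parp1, the main DNA-damage-activated ADP-ribosyltransferase, stood at 0.014 (adjusted p = 0.87 by edgeR), and Cd38, an NAD+ hydrolase, had -0.25 (SE 0.13, adjusted p = 0.22 by edgeR). Without Old 4, Cd38 had -0.42 (adjusted p = 0.027 by edgeR), so that 1 mouse decides its call.

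Direct regulators of the sirtuins showed no call. Of 8 tested genes, 0 had an adjusted p under 0.05 by edgeR, beside 11.0% of all genes tested, and their median log2 fold change was 0.0061. They include Ccar2, which inhibits SIRT1, at 0.0067 (SE 0.041, adjusted p = 0.94 by edgeR), and Rps19bp1, which activates SIRT1, at 0.0056 (SE 0.073, adjusted p = 0.97 by edgeR). The estimates, 5 above 0 and 3 below, ran from -0.12 (Dyrk3) to 0.11 (Dyrk1a). Dyrk1a had no overlap between the ages and an adjusted p of 0.056 by edgeR.

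Genes of sirtuin substrates moved in both directions. These transcripts say nothing of acetylation, which RNA does not measure. Of 19 tested nuclear and cytosolic substrates, 3 rose (15.8%) and 4 fell (21.1%), beside 6.09% and 4.89% of all genes tested, with a median log2 fold change of 0.037. Per2, a repressor of the circadian clock, rose by 0.56 on the log2 scale (SE 0.060, mean CPM 44.6 in Young and 65.7 in Old) and Foxo1, a stress-response transcription factor, by 0.25 (SE 0.057, adjusted p = 0.0099 by edgeR). Acss2, which makes acetyl-CoA from acetate, fell by 0.28 (SE 0.046, adjusted p = 0.00086 by edgeR), and Tuba1a, the tubulin isotype of developing neurons, fell by 0.26 (SE 0.052, adjusted p = 0.0049). Foxo3 stood at 0.055 (adjusted p = 0.60 by edgeR), and Ppargc1a, which encodes PGC-1α, had -0.0066 (adjusted p = 0.96).

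Of 23 tested mitochondrial substrates, 1 rose (4.35%) and 4 fell (17.4%), beside 6.09% and 4.89% of all genes tested, with a median log2 fold change of -0.043 and 18 of 23 estimates below 0. Idh2, which makes NADPH in mitochondria, rose by 0.36 (SE 0.062, adjusted p = 0.0015 by edgeR). Those that fell did so by small amounts, among them Slc25a5, an ADP/ATP carrier, at -0.14 (adjusted p = 0.017 by edgeR), Dlat, a subunit of pyruvate dehydrogenase, at -0.13 (adjusted p = 0.014), and Sod2, the manganese superoxide dismutase, at -0.12 (adjusted p = 0.022). The call of Slc25a5 was lost without Young 5 (adjusted p = 0.051 by edgeR), and that of Sod2 without Young 1 (0.056), Old 1 (0.070) or Old 4 (0.055). Glud1, glutamate dehydrogenase, had -0.086 (SE 0.040, adjusted p = 0.18 by edgeR).

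The other deacetylases and the opposing enzymes were set beside the sirtuins. Of 11 zinc-dependent deacetylases, 0 rose and 1 fell (9.09%, beside 4.89% of all genes tested), Hdac2, at a log2 fold change of -0.12 (SE 0.037), whose adjusted p of 0.04999 by edgeR was kept under 0.05 in 5 of 19 alternatives and lost when any 1 mouse was left out. Hdac3 had -0.0047 (adjusted p = 0.96 by edgeR). Of 10 lysine acetyltransferases, 3 rose and 0 fell, beside 6.09% and 4.89% of all genes tested, with a median of 0.085. They were Kat2b (0.29, SE 0.056, adjusted p = 0.0036 by edgeR), Kat6a (0.23, SE 0.035) and Crebbp (0.19, SE 0.038), while Ep300 had 0.082 (SE 0.039, adjusted p = 0.20). None of the genes named in these lists kept an adjusted p under 0.05 with limma on log2(TPM + 1) or log2(TPM + 0.1).

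**Figure D4:**
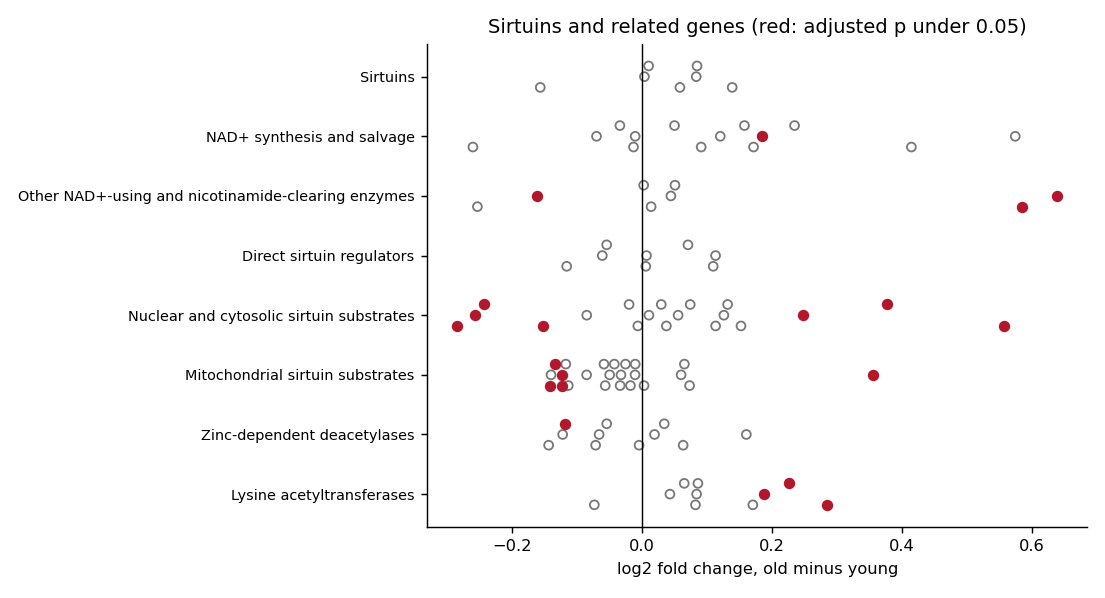
Log2 fold change (x axis, old minus young) of each tested gene of the 7 sirtuins and 7 related lists (rows); red marks an adjusted p under 0.05 (edgeR), open grey the rest. The sirtuins sit between -0.16 and 0.14 with 0 red points.

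The genes next to the sirtuins were checked, since overlapping exons can share reads and since the methods say that stranded libraries were counted by strand but not whether these libraries were stranded. Of 17 tested genes that overlap a sirtuin or are its nearest coding gene, 2 were lower in Old, beside 4.89% of all genes tested, and 15 did not pass, with adjusted p of 0.063 or more. Ankrd24, which begins 743 bases from the start of Sirt6 on the other strand, fell by 0.25 on the log2 scale (SE 0.048, adjusted p = 0.0026 by edgeR), while Sirt6 had 0.085. Pcyt2, 435 bases from Sirt7, fell by 0.16 (SE 0.037, adjusted p = 0.010 by edgeR), while Sirt7 had 0.058. Exons of Sirt3 overlap those of Psmd13 by 342 bases (log2 fold change 0.075) and of Ric8a by 418 bases (-0.0032), and exons of Sirt2 overlap Nfkbib by 42 bases (0.042). Psmd13, Ric8a and Nfkbib lie on the other strand. Exons of Sirt7 overlap Mafg by 124 bases (-0.023) on the same strand, where counting by strand would not separate them. Dnajc12, which begins 739 bases from the GENCODE start of Sirt1, had 0.0074. The RefSeq start behind the printed Sirt1 promoter, next to position 63339036, lies much farther from Dnajc12. The other neighbours, Herc4, Ccer2, Rinl, Bet1l, Cox8b, Pxn, Gfod1, Nol7, BC025920 and Pycr1, had log2 fold changes from -0.51 (Pycr1) to 0.84 (Cox8b). Cox8b had 1.09 without Young 3 (adjusted p = 0.030 by edgeR), and Gfod1, at 0.12 with all mice, had 0.16 without Old 3 (adjusted p = 0.037 by edgeR).

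The pattern of each sirtuin over the 9 mice was compared with 14503 genes by Pearson's r of log2 CPM, as a description. The best matches were Eps15l1 for Sirt1 (0.95), Cdc37l1 for Sirt2 (0.97), Grwd1 for Sirt3 (0.93), Dync1i2 for Sirt4 (0.96), Kif19a for Sirt5 (0.96), Rnps1 for Sirt6 (0.96) and Pag1 for Sirt7 (0.96). The next were Zswim7 and Gtf2h1 for Sirt1, Creg1 and Pdk4 for Sirt2, Foxp1 and Nsmf for Sirt3, Ift80 and Zfp938 for Sirt4, Olig1 and Pycrl for Sirt5, Lrrc10b and Gm37422 for Sirt6 and Slc25a30 and Gm43012 for Sirt7. The best r of any gene had a median of 0.957, so matches of this size were usual at 9 mice.

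Total counts per library ranged from 14229259 to 21150439. Among other marker lists, 3 of 5 blood genes were higher in Old (summed CPM 88.1 to 115.2 in Young and 126.9 to 408.2 in Old). So were 3 of 5 endothelial genes (190.5 to 214.3 and 216.6 to 245.2) and 1 of 6 microglial genes (201.7 to 272.3 and 270.2 to 326.7). All 6 microglial estimates were above 0, with a median log2 fold change of 0.34. Of 9 neuronal genes, 2 were lower. Of all genes tested, 6.09% were higher and 4.89% lower in Old. Hemoglobin genes have near-identical copies, so their counts are uncertain. Astrocytic markers gave 0 calls of 6 by edgeR. Of the markers of muscle and liver, 3 of 5 were tested with 0 calls (summed CPM 4.41 to 8.84 in Young and 4.98 to 27.3 in Old). Among 5 markers of oligodendrocyte precursors, 1 (Gpr17) was lower, with 2 estimates above 0 and 3 below. Among 4 markers of choroid plexus and ependyma, 1 (Ccdc153) was lower, with 1 estimate above 0 and 3 below. The part of these differences in the sirtuin values was not tested.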

How the data were processed

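PolyA-selected RNA from 9 brains was sequenced by the study. Per the study's methods, reads were trimmed with Trimmomatic, aligned to GRCm38 with STAR, and uniquely mapped exonic reads were counted with featureCounts. The authors deposited these counts unnormalized, as whole numbers. The authors' normalized counts are a signal, counts divided by a size factor per library, over 17994 genes. The deposited TPM values were made by the authors with gene lengths not given in the sources used here. In each table, 1 column matched no sample and was not used.

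Counts were filtered with filterByExpr (minimum count 10, total 15), scaled with TMM and tested with edgeR 4.0.16 (robust quasi-likelihood, Benjamini-Hochberg) in R 4.3.3, with limma 3.58.1 and DESeq2 1.42.0 as alternatives. The script was tested on simulated data. Shares used exact permutation tests over 126 splits (SciPy 1.17.1). Positions came from GENCODE M21, and 259 IDs had no symbol. Libraries of one age differed by more than sampling noise (chi-square over its degrees of freedom, lowest 4.04). The edgeR p-values set the age difference against the spread between mice of one age, as estimated from these 9 mice. Total counts per library were 14229259 to 21150439.

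The members and lists were chosen with earlier results of these data known. Named genes were the sirtuins, genes of each list with an adjusted p under 0.05 (at most 4), some defining members, neighbours and the 3 most similar genes. The robust fit, the defining members, the motifs and the promoters printed were chosen after values were seen. Alternatives were other size factors, tests, units, pseudocounts, filters and thresholds, a replicate block and each mouse left out. The non-robust fit and CPM without TMM were added after the data were seen.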

Additional observations from a re-analysis of the deposited data

Results flagged for a closer look

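No sirtuin had a mouse standing apart from the others of its age. Of 106 groups examined (the sirtuins, the list genes and neighbours named, and the 3 compartment shares, at each age), 6 had 1 mouse whose gap to the nearest other, as a share of the group's range, exceeded Dixon's 95% limit, and chance gives about 5.3. Ccar2 was at 98.1 CPM in Old 1 beside 88.0 to 89.4 in the other old mice (gap 0.863 of the range). Rps19bp1 was at 11.4 CPM in Old 3 beside 12.4 to 12.6 (0.839). Foxo1 was at 32.8 CPM in Young 3 beside 35.6 to 36.6 (0.731). Among the neighbours, Rinl was at 1.61 CPM in Young 5 beside 2.66 to 3.02 (0.740), Cox8b was at 1.10 CPM in Young 3 beside 0.432 to 0.609 (0.736), and BC025920 was at 2.05 CPM in Old 3 beside 0.998 to 1.12 (0.888).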

How the results depend on the processing

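The count of 0 sirtuins with an adjusted p under 0.05 held in every alternative run, and Sirt5 kept its negative sign in 19 of 19. In TPM, all genes together had a median log2 fold change of -0.14 with log2(TPM + 1) and -0.16 with log2(TPM + 0.1), and every sirtuin lay below 0. With these 2 settings in turn, Sirt1 had -0.026 and -0.027, Sirt2 -0.081 and -0.082, Sirt3 -0.15 and -0.16, Sirt4 -0.15 and -0.15, Sirt6 -0.085 and -0.090, and Sirt7 -0.098 and -0.10. Relative to the median, 4 and 6 sirtuins were above it. Other genes that turned there were Parp1 (-0.15 and -0.15), Ccar2 (-0.16 and -0.16), Rps19bp1 (-0.16 and -0.16), Foxo3 (-0.11 and -0.12), Ep300 (-0.080 and -0.083), Psmd13 (-0.087 and -0.089), Nfkbib (-0.12 and -0.13), Dnajc12 (-0.16 and -0.17), Gfod1 (-0.049 and -0.050) and Nol7 (-0.11 and -0.11). Without a filter, Sirt3 had -0.0068, Sirt4 -0.00031, Ccar2 -0.0036, Rps19bp1 -0.0046 and Dnajc12 -0.0025. Sirt3 had -0.00016 with upper-quartile scaling, and Dnajc12 had -0.0043 on the authors' normalized counts. The cause of these turns was not tested.

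With each mouse left out, values crossed 0 for Sirt3 (-0.029 to 0.033), Sirt4 (-0.029 to 0.054), Ccar2 (-0.028 to 0.021), Dnajc12 (-0.062 to 0.064), Foxo3 (-0.0022 to 0.11), Hdac3 (-0.021 to 0.012), Herc4 (-0.077 to 0.014), Mafg (-0.036 to 0.010), Nmnat2 (-0.054 to 0.016), Parp1 (-0.0047 to 0.035), Ppargc1a (-0.042 to 0.042), Ric8a (-0.025 to 0.017) and Rps19bp1 (-0.0089 to 0.035). Without changing sign, Sirt6 ran from 0.0065 to 0.15, Sirt1 from 0.089 to 0.17, Sirt2 from 0.057 to 0.10 and Sirt7 from 0.033 to 0.083. The mitochondrial share difference ran from -2.28 to -1.74 percentage points. Its adjusted p by the exact permutation test was 0.0857 without any 1 young mouse, 0.0536 without Old 1 and 0.107 without any other old mouse. The values 0.0857 and 0.107 are the smallest the test allows when 1 share alone reaches its smallest p. Fewer splits are possible with a mouse left out, so the lost call alone does not show a smaller difference. The share difference was -1.31 percentage points with CPM and -1.29 per kilobase of annotated exons. The genes past both thresholds (0.05 for the adjusted p, 0.58 for the log2 fold change in either direction) numbered 463, against 707 without a filter, where more genes were tested, and 256 with an adjusted p under 0.01 and the same fold threshold. The number of sirtuins without overlap between the ages was 2, and 0 without TMM.

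Same-numbered young and old mice had correlations of deviations of 0.19, -0.11, 0.11 and -0.047, so the numbers were not taken as pairs. With the replicate block, the values were -0.031 for Sirt4, -0.0055 for Parp1, 0.0082 for Hdac3 and 0.0060 for Ric8a, each of the other sign, 0 sirtuins passed, and the calls of Sarm1, Slc25a5, Sod2 and Hdac2 were lost. Over the list genes and neighbours named and the counts of calls, those above included, 938 of 1116 values under alternatives kept their direction and call or stayed within 1.5 times the count.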
